A study of Mus musculus with 3 samples.

Results

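The 10 genes described here encode antiviral effector proteins that are switched on by interferon. They are Ifit1, Ifit2, Ifit3, Ifitm1, Ifitm2, Ifitm3, Rsad2 (viperin), Ifi44, Cmpk2 and Bst2 (tetherin). They were chosen by name, through every array probe that is not a control and carries 1 of these gene names, which gave 16 probes of 41174 and 10 genes of 27729. The RNA came from mouse cells with and without phospho-ascorbate (pAsc, a stable form of vitamin C), and the study's title concerns positive selection of T cells. Per the labels of each channel, treated RNA was in Cy5 and untreated RNA in Cy3, and the pair was hybridised to 1 array of 2 colours for each of 3 comparisons. In the stromal comparison, OP9-DL1 cells given 800 µM pAsc for 24 h were set against OP9-DL1 cells in MEM alone. OP9-DL1 is a stromal line that presents a Notch ligand, listed in the labels as an osteoblast of strain B6-C3Hf1 in continuous culture. In the other comparisons, C57BL/6 bone marrow progenitors were grown on OP9-DL1 cells with Flt3L and IL7 to make T lineage cells. Cells of 14 days that had pAsc for the last 24 h, and cells of 17 days that had it for the last 72 h, were each set against untreated cells of the same day. Both arms of these cultures therefore shared the stroma and the cytokines, and stromal cells were removed only by a 30 min adherence step.

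Cells that sense interferon pass the signal through receptor-bound kinases such as Tyk2 to transcription factors, among them Stat2 and Irf9, which act at interferon-stimulated response elements in the promoters of target genes. The products of the 10 genes act at different steps of infection. Ifit proteins bind foreign RNA in the cytosol, Ifitm proteins hinder the fusion of viral envelopes with cell membranes, viperin is a radical enzyme that alters a nucleotide, and tetherin holds budding virus on the cell surface.

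The promoters were examined for the core of the response element, GAAA then any 2 bases then GAAA on either strand, in RefSeq windows of GRCm38.p6 that run from 250 bases before to 50 bases after each annotated start. The motif was present in 6 of the 11 windows of the 10 genes (54.5%), against 3.44% of all 32851 windows. Among other interferon-stimulated genes it was present in 15 of 37 windows (40.5%). The 170 bases before the start are shown, 5′ to 3′ on the strand of the gene and with matches in capitals, for 3 genes that were at least 2-fold higher in treated stroma and hold the motif (Ifit1, Ifit3, Bst2), for 1 that was higher and does not (Ifi44), and for 1 that holds it but was not above background in stroma (Rsad2). They lie on the plus strand at chr19:34640719-34640888 (Ifit1) and chr19:34583359-34583528 (Ifit3), and on the minus strand at chr8:71537473-71537642 (Bst2), chr3:151749911-151750080 (Ifi44) and chr12:26456453-26456622 (Rsad2).
Ifit1: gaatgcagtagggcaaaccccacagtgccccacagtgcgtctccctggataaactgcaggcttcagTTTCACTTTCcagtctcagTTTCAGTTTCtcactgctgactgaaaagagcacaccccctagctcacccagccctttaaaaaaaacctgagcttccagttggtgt
Ifit3: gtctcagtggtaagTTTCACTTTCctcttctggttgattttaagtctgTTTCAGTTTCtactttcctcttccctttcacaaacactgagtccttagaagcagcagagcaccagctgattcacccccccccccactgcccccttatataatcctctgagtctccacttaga
Bst2: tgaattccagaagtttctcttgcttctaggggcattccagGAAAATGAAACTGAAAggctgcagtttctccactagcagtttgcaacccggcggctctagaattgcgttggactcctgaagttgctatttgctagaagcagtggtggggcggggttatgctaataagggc
Ifi44: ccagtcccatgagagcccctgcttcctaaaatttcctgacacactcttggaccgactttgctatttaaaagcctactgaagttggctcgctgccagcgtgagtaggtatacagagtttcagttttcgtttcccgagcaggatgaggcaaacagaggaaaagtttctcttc
Rsad2: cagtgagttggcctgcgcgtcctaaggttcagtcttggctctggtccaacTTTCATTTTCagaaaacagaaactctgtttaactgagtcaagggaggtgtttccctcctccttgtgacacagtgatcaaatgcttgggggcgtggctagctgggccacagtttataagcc
Ifit1 held matches at 104 to 95 and 85 to 76 bases before its start, and Ifit3 at 156 to 147 and 122 to 113. These 4 matches read TTTC first, since the motif lay on the opposite strand. In Bst2 the matches at 130 to 121 and 124 to 115 overlapped, and a gamma-activated site, TTCNNNGAA, overlapped the first of them at 136 to 128. Rsad2 had 1 match at 120 to 111. Ifitm2 had 1 at 46 to 37, and Ifitm3 had 2 within the 50 bases after its start. No match was found in the windows of Ifitm1, Ifi44 and Cmpk2 or in the 2 windows of Ifit2. The gamma-activated site was in 3 of the 11 windows (Bst2, Ifit2 and Ifitm3), against 8.3% of all windows. The pattern allowed no mismatch and no other spacing, so a near match, such as tttcagtttt in Ifi44, was not counted. A match describes these letters only, and binding was not measured.

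**Figure D1:**
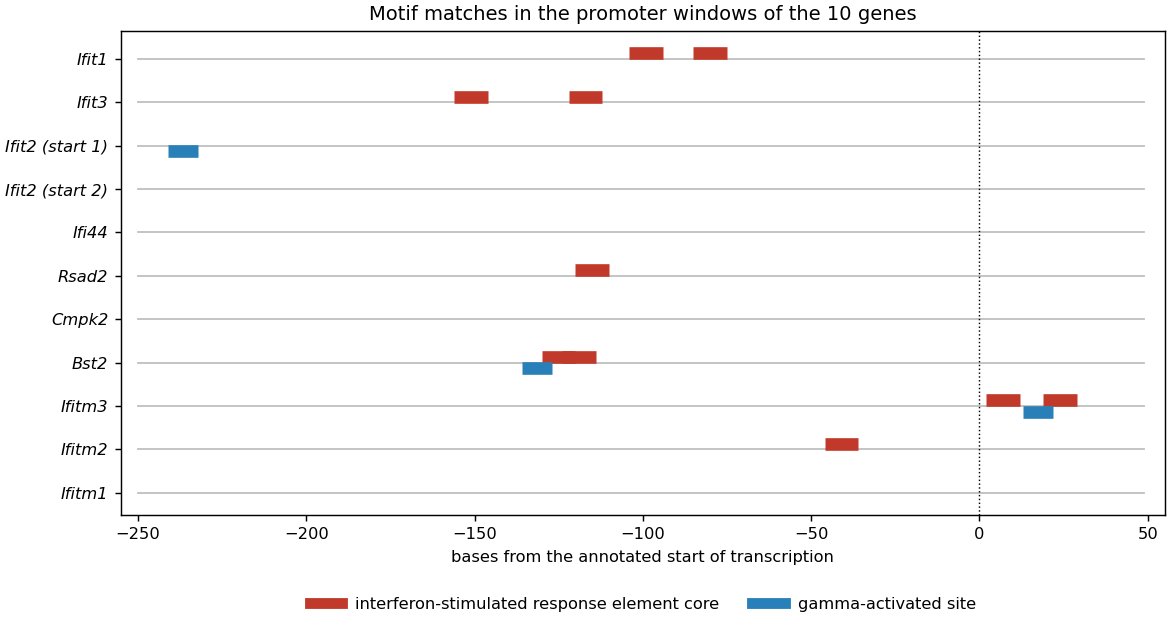
Matches of the interferon-stimulated response element core (red) and the gamma-activated site (blue) in the promoter windows of the 10 genes, plotted by distance in bases from the annotated start of transcription (dotted line). Each grey line is 1 of the 11 windows. Ifit1, Ifit3 and Bst2 each hold 2 red matches before the start, and Ifi44, Cmpk2 and Ifitm1 hold none of either kind.

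The probes of the Ifitm genes are shown because these genes lie side by side and resemble each other. Each probe has 60 bases. The Ifitm1 probe lies at chr7:148155455-148155514 on mm9, the build of the array design. The brighter Ifitm2 probe lies at chr7:148140912-148140971, and the file places the other at chr7:54087914-54087973, away from the cluster. Capitals in that second probe mark 27 bases that it shares with a probe for another gene name, LOC631287.
Ifitm1 probe: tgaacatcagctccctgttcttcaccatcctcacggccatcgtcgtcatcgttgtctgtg
Ifitm2 brighter probe: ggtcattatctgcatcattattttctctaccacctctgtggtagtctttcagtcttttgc
Ifitm2 second probe: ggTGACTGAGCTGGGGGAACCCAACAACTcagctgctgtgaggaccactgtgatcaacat
For the other 15 probes, the longest run shared with a probe of another gene was 13 to 15 bases. Probes were compared only with probes, so a match to the RNA of another gene was not examined.

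With 1 array per comparison, no replicate and no dye swap, no test was possible. A gene counted as measured if both channels stood well above background, and as called if it was also 2-fold or more apart. Measured genes numbered 14346 for stroma, 16971 for T cells after 24 h and 16282 after 72 h. The log2 SD was 0.066 to 0.070 among repeat spots of a probe, and 0.14 to 0.18 among the several probes of a gene. These spreads lie within an array and hold no variation between cultures. A dye effect of a single probe cannot be told apart from treatment within 1 array. Levels are normalised intensities, comparable for 1 probe across the 6 RNA samples and not between probes. In such bulk RNA, fewer cells of a type and less RNA per cell cannot be told apart. Of 18 stromal markers, all were above background in both stromal samples. All 14 T lineage markers were above background in the 4 T cell samples, while 11 of them, Ptprc, Cd3d, Cd3g and Rag1 included, were not in untreated stroma.

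In stromal cells given pAsc for 24 h, Ifit1, Ifit3, Bst2 and Ifi44 were at least 2-fold higher than in untreated stroma. Of the 10 genes 8 were well above background in both channels, 4 of the 8 were at least 2-fold higher, where 0.432% of all measured genes were, and 0 were at least 2-fold lower, where 0.118% of all were. All 8 lay above 0, with a median log2 ratio of 0.94 against 0.02 over all measured genes. With centring on measured genes in place of loess 6 of the 8 did, with Ifit2 at -0.02 and Ifitm1 at -0.18. The response was uneven within each family. In the Ifit family Ifit1 and Ifit3 were higher and Ifit2 was not past 2-fold. In the Ifitm family no gene passed 2-fold by the loess values, but Ifitm3 did with centring on measured genes, at 1.38.

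Ifit1, which recognises foreign RNA by its cap, had a level of 2508 in treated stroma, against 617.7 in untreated stroma. It was 4.06-fold higher, at a log2 ratio of 2.02, and Agilent's own log2 ratio was 2.24 ± 0.29 (the error that its software estimates within the array). Its probe lies at chr19:34723796-34723855 on mm9. By these loess values it had the largest ratio of the 10 genes on any of the 3 arrays.

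Ifit3, a partner of Ifit1 in human cells, had a level of 3405 in treated stroma, against 1019 in untreated stroma. It was 3.34-fold higher, at a log2 ratio of 1.74. Its probe lies at chr19:34663105-34663164. Ifit3b, a close copy that the array lists apart, was at 226.4 in treated and 123.1 in untreated stroma, at a log2 ratio of 0.88 (2.34 by Agilent). A probe may catch the RNA of a copy this similar, so the values of Ifit3 and Ifit3b are uncertain as those of single genes.

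Ifit2, another RNA-binding member of the family, stood at 216.8 in treated stroma and 174.1 in untreated stroma, a log2 ratio of 0.32 at its brighter probe (chr19:34650244-34650303). Its second probe was not above background in either channel. The stromal value of Ifit2 therefore rests on 1 probe.

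Bst2, the tether of budding virus, was bright. Its level was 20350 in treated stroma, against 7961 in untreated stroma, 2.56-fold higher at a log2 ratio of 1.35. Agilent's log2 ratio was 1.37 ± 0.24. Its probe lies at chr8:74058603-74058662.

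Ifi44, an interferon-induced cytosolic protein, had a level of 693.0 in treated stroma and 302.7 in untreated stroma. It was 2.29-fold higher, at a log2 ratio of 1.20. Its second probe, drawn from a cDNA clone upstream of the first on the minus strand, was not above background in untreated stroma. It was at 91.1 in treated and 86.5 in untreated stroma, a log2 ratio of 0.08, and 1.88 ± 0.73 by Agilent. The call for Ifi44 therefore rests on 1 probe, at chr3:151394035-151394094.

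Cmpk2, a mitochondrial nucleotide kinase, and Rsad2, its neighbour on chromosome 12, were dim in stroma. Their brightest probes lie at chr12:27164119-27164178 and chr12:27127859-27127918, and the other 2 Rsad2 probes are placed over spans of 3039 and 3302 bases, longer than the 60 bases of a probe. Cmpk2 had a level of 232.6 in treated stroma and 124.7 in untreated stroma, where it was not well above background. It was at least 1.87-fold higher in treated stroma, a bound that is open to dye bias because there was no dye swap. In the raw signal, its spot read 195.0 over a local background of 48 in Cy5 and 33.5 over 19.5 in Cy3, and Agilent's log2 ratio was 2.73 ± 0.36. Its second probe was not above background in either channel. None of the 3 Rsad2 probes was well above background in either stromal channel, with the brightest at 89.4 in treated and 75.1 in untreated stroma. For viperin no stromal response could be measured on this array.

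Of the Ifitm genes, Ifitm3, with its probe at chr7:148195591-148195650, was the farthest from 0. It had a level of 50438 in treated stroma, against 31551 in untreated stroma, 1.60-fold higher at a log2 ratio of 0.68. Ifitm2 stood at 12837 and 11831, a log2 ratio of 0.12, and its second probe gave 0.05. Ifitm1 was near the bottom of the measured range in both stromal samples, at 190.9 in treated and 168.2 in untreated stroma, a log2 ratio of 0.18. Ifitm7, a relative outside the 10 genes, was at 24876 in treated and 17895 in untreated stroma, a log2 ratio of 0.48.

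**Figure D2:**
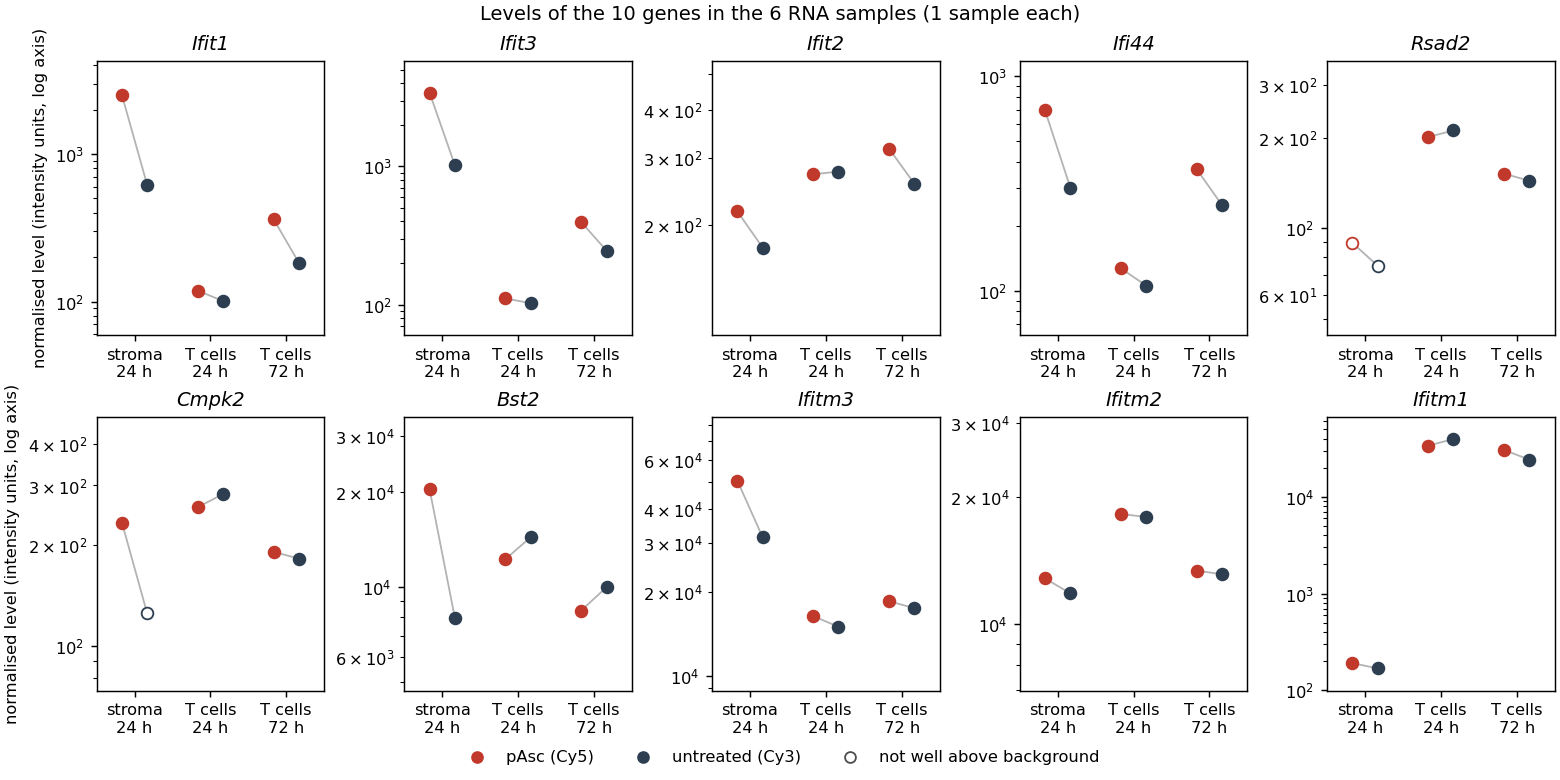
Normalised level (intensity units, log axis, a scale of its own for each gene) of the 10 genes in the 6 RNA samples, 1 point a sample. Red points are pAsc samples (Cy5), dark points untreated samples (Cy3), a line joins the 2 samples of an array, and open points are not well above background. Ifit1 is highest in treated stroma at 2508 and lowest in untreated T cells of day 14 at 100.9, while Ifitm1 is at 168.2 to 190.9 in stroma and 24202 or higher in each T cell sample.

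In T cells given pAsc for 24 h, none of the 10 genes was 2-fold apart from untreated T cells of day 14. All 10 were measured, 0 were at least 2-fold higher where 0.312% of all genes were, and 0 were at least 2-fold lower where 0.0118% were. They were spread evenly about 0, with 5 above and 5 below and a median of -0.00, against 0.02 over all measured genes. The range ran from -0.23 for Bst2 and Ifitm1 to 0.27 for Ifi44.

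Ifit1 had a level of 118.7 in treated T cells at 24 h, against 100.9 in untreated cells, a log2 ratio of 0.23. Ifit3 was at 110.8 and 102.3 in the same samples, a log2 ratio of 0.12. These are low signals, since the lowest level well above background was 64.6 in the treated and 72.2 in the untreated channel. Ifi44 was as dim, at 127.2 in treated and 105.6 in untreated cells, a log2 ratio of 0.27 (0.65 ± 0.23 by Agilent). Its second probe, also above background in both channels, gave 0.005.

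Bst2 was bright in T cells and lay on the other side of 0 from its stromal value. It had a level of 12235 in treated cells, against 14370 in untreated cells, a log2 ratio of -0.23. Ifitm1 was brighter still, at 33758 in treated and 39509 in untreated cells, also a log2 ratio of -0.23. Both signs turned only under centring by a median, which makes no correction that depends on brightness. Agilent's log2 ratios were -0.25 for Bst2 and -0.46 for Ifitm1. With centring on the median of measured genes in place of loess, Bst2 was at 0.08 and Ifitm1 at 0.22. The dim genes Ifit1, Ifit3 and Ifi44 turned the other way there, to -0.15, -0.29 and -0.08.

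The remaining genes differed little at 24 h. Ifit2 was at 271.4 in treated and 276.0 in untreated cells, a log2 ratio of -0.02, while its second probe gave 0.11. Rsad2, above background in T cells unlike in stroma, was at 201.0 in treated and 211.4 in untreated cells, a log2 ratio of -0.07, with its other probes at -0.17 and -0.11. Cmpk2 was at 258.4 and 282.8, a log2 ratio of -0.13, and its second probe gave -0.15. Ifitm2 and Ifitm3 had log2 ratios of 0.02 and 0.13, while the second Ifitm2 probe gave -0.11.

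In T cells given pAsc for 72 h, Ifit1, Ifit3 and Ifi44 had the 3 highest ratios of the 10 genes, and none of them reached 2-fold. All 10 were measured, with 0 at least 2-fold higher where 0.227% of all genes were, and 0 at least 2-fold lower where 0.381% were. Of the 10, 9 lay above 0 and Bst2 lay below, with a median of 0.19 against 0.01 over all measured genes. By Agilent's log ratio 8 lay above 0, with Cmpk2 at -0.03. With centring on measured genes Rsad2 and Cmpk2 lay below 0 in place of Bst2, and Ifitm1, at 0.82, was second to Ifit1.

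Ifit1 lay just under the 2-fold rule. It had a level of 362.1 in treated T cells at 72 h, against 183.6 in untreated cells of day 17, 1.97-fold higher at a log2 ratio of 0.98. By Agilent's log2 ratio of 1.13 ± 0.23 it was past it. Ifit3 was at 394.7 in treated and 245.7 in untreated cells, 1.61-fold higher at a log2 ratio of 0.68. Ifi44 was at 368.5 in treated and 250.9 in untreated cells, 1.47-fold higher at a log2 ratio of 0.55, and its second probe was not above background in either channel.

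These 3 genes were also those that stood highest in untreated stroma relative to untreated T cells of day 14, by 2.87-fold to 9.96-fold. Relative to untreated T cells of day 17, the untreated sample on this array, stroma stood 4.15-fold higher for Ifit3, 3.36-fold for Ifit1 and 1.21-fold for Ifi44, below the 1.80-fold of Ifitm3. Stromal markers were higher in treated cells as well. Of the 18 stromal markers 17 were measured at 72 h, 14 of them lay above 0 and 2 were at least 2-fold higher, with a median log2 ratio of 0.52. Their summed level was 525129 in treated T cells and 350512 in untreated T cells of day 17, and only Dcn was not above background, in the untreated sample. At 24 h all 16 measured stromal markers lay above 0 and 4 were at least 2-fold higher, with a median of 0.72 and summed levels of 229779 in treated and 128800 in untreated cells. These markers also differed with pAsc in the stromal comparison. There 11 of 18 lay above 0 and 7 below, with 1 at least 2-fold higher and a median of 0.22. The summed levels there were 772843 in treated and 636342 in untreated stroma. Such sums weigh the brightest probes most. The part of stromal markers in the values of the 10 genes was not tested. Myeloid and dendritic markers, of cell types known as makers of interferon, summed to 1554 in treated and 1617 in untreated cells at 72 h, with 7 of 10 above background and Siglech, Itgam and Elane not above it in any sample. Within that sum Lyz2 had a log2 ratio of -1.27 and Adgre1 of 0.87.

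The other genes were close together at 72 h. Ifitm1 was at 30454 in treated and 24202 in untreated cells, a log2 ratio of 0.33, and Ifit2 at 317.2 and 256.5, a log2 ratio of 0.31. Bst2 was at 8410 in treated and 9973 in untreated cells, a log2 ratio of -0.25, which turned to 0.10 with centring on measured genes. Rsad2 had a log2 ratio of 0.08, while its other probes were not above background in both channels, and Cmpk2, Ifitm2 and Ifitm3 had 0.07, 0.03 and 0.08. The ratios of Rsad2, Cmpk2, Ifitm2 and Ifitm3 were smaller than the SD among probes of a gene on this array, 0.18. The second Ifitm2 probe gave -0.03.

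**Figure D3:**
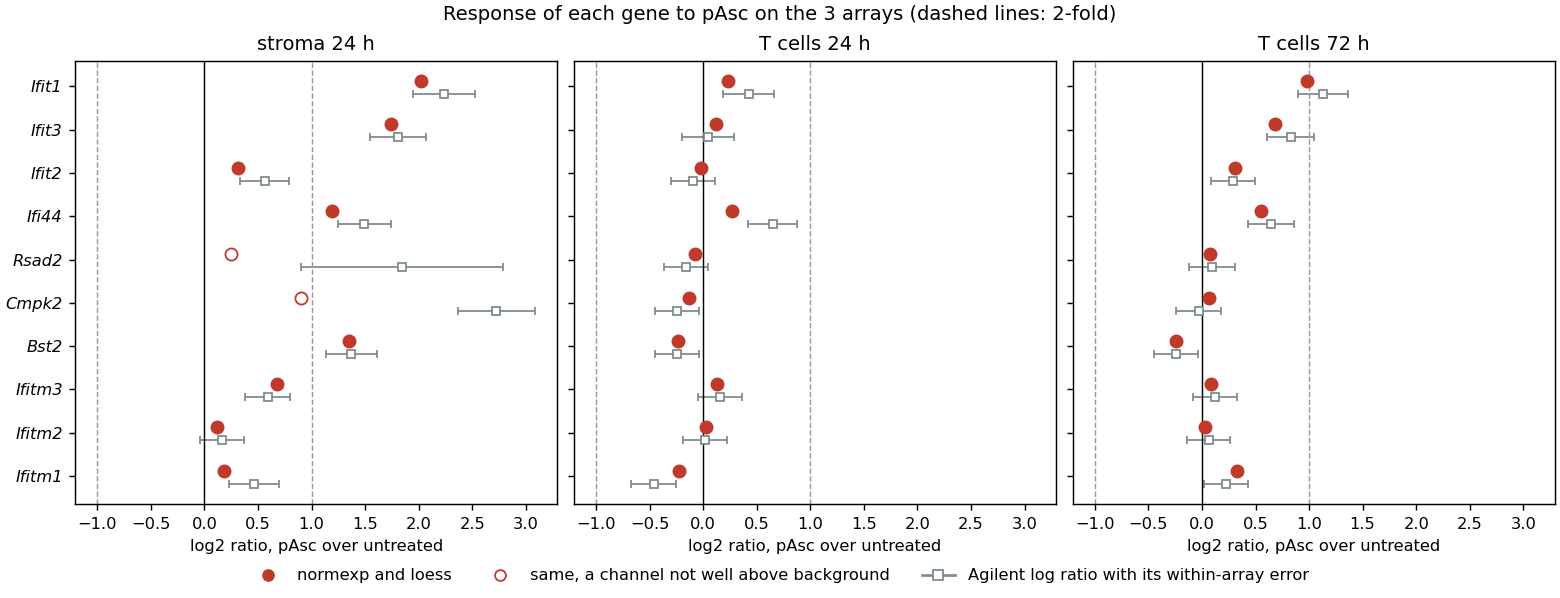
Log2 ratio of pAsc over untreated for the 10 genes on the 3 arrays. Red circles are the background-corrected and loess-normalised values (open where a channel was not well above background), grey squares Agilent's log ratio with its error within the array, and dashed lines mark 2-fold. On the stromal array Ifit1, Ifit3, Bst2 and Ifi44 lie past the 2-fold line by both measures, and in T cells at 72 h Ifit1 lies at the line, at 0.98 and 1.13.

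By Agilent's log ratio the same 4 genes were at least 2-fold higher in stroma, where 0.948% of all measured genes were, and 0 were lower, where 0.767% were. None was 2-fold apart in T cells at 24 h, where 0.866% of all were higher and 0.189% lower. At 72 h Ifit1 was higher, where 0.712% of all were, and 0 were lower, where 1.02% were. Under a 1.5-fold rule on the loess values, Ifitm3 joined the 4 genes in stroma, where 2.2% of all were higher and 2.78% lower. That rule called none of the 10 genes at 24 h, where 3.19% of all were higher and 0.23% lower. At 72 h it called Ifit1 and Ifit3 higher, where 1.93% of all were, and 0 lower, where 1.93% were.

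The response of stroma was set against that of T cells at the same 24 h of pAsc, as a difference of log2 ratios, from which a dye bias that a probe shows on every array drops out. Of the 8 genes measured on both arrays, 3 were at least 1 log2 unit higher in the stromal comparison, where 0.378% of all genes were, and 0 at least 1 lower, where 1.38% were. These were Ifit1 at 1.79, Ifit3 at 1.62 and Bst2 at 1.59. Ifi44 lay just inside, at 0.93, and Ifitm3, Ifitm1, Ifit2 and Ifitm2 lay at 0.55, 0.41, 0.34 and 0.10. The stromal and T cell comparisons share no sample.

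Between 72 h and 24 h in T cells, the log2 ratio of Ifit1 was higher by 0.75, that of Ifit3 by 0.57 and that of Ifitm1 by 0.56. None of the 10 genes differed by 1 or more, where 0.191% of all genes were at least 1 higher and 0.362% at least 1 lower. Bst2 differed by -0.01 and Ifitm3 by -0.05. Time on pAsc and age of the culture changed together between these arrays and cannot be told apart.

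Without pAsc, some of the 10 genes were higher in stroma and others in T cells. Of the 8 genes above background in both samples, 4 were at least 2-fold higher in untreated stroma than in untreated T cells of day 14, where 24.7% of all genes were, and 1 was at least 2-fold lower, where 15.5% were. Ifit3 was 9.96-fold, Ifit1 6.12-fold, Ifi44 2.87-fold and Ifitm3 2.11-fold higher in stroma. Ifitm1 was the 1 lower, with a level of 168.2 in stroma against 39509 in T cells, a log2 difference of -7.88. Rsad2 and Cmpk2, not above background in untreated stroma, were at least 2.81-fold and at least 2.27-fold lower in stroma than in T cells of day 14. Against untreated T cells of day 17, 2 of 8 genes were at least 2-fold higher in stroma, where 16.2% of all genes were, and 1, Ifitm1, at least 2-fold lower, where 10% were. The 2 were Ifit3 at 4.15-fold and Ifit1 at 3.36-fold, while Ifitm3 was at 1.80-fold and Ifi44 at 1.21-fold. Within the Ifitm cluster, against day 14, Ifitm1 thus stood far lower in stroma, Ifitm2 differed by a log2 value of only -0.60 between the same samples, and Ifitm3 lay on the stromal side.

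With pAsc in both, treated stroma stood higher still over treated T cells at 24 h for the Ifit genes called in stroma. Ifit3 was 30.7-fold and Ifit1 21.1-fold higher in treated stroma, and Ifi44 was 5.45-fold higher. In all 4 of 9 genes were at least 2-fold higher, where 24.2% of all genes were, and 1, Ifitm1, at least 2-fold lower, where 16.7% were. Bst2 was 1.66-fold higher in treated stroma than in treated T cells, and had a log2 difference of -0.85 between the untreated samples, with stroma the lower.

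T cells of day 17 were also set against T cells of day 14 within each treatment. Without pAsc, Ifit3 was 2.40-fold and Ifi44 2.37-fold higher at day 17, and Ifit1 1.82-fold higher, while Bst2, Rsad2, Cmpk2 and Ifitm1 had log2 differences of -0.53, -0.56, -0.64 and -0.71. Thus 2 of 10 genes were at least 2-fold higher, where 7.65% of all genes were, and 0 at least 2-fold lower, where 3.65% were. With pAsc, 3 of 10 were at least 2-fold higher at day 17, where 6.8% of all genes were, and 0 lower, where 5.37% were. They were Ifit3 at 3.56-fold, Ifit1 at 3.05-fold and Ifi44 at 2.90-fold. The summed stromal markers were higher at day 17 too, at 350512 in untreated cells against 128800 at day 14, and their part in these differences was not tested.

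Put in order over the 6 samples, Ifit1, Ifit3 and Ifi44 were each highest in treated stroma and lowest in untreated T cells of day 14. For Ifit1 and Ifit3, untreated stroma came next, then treated and untreated T cells of day 17, then treated T cells of day 14. For Ifi44, treated T cells of day 17 lay between the stromal samples. The 2 lowest samples of Ifit3 differed by 0.12 (log2), less than the SD between probes of a gene. Bst2 and Ifitm3 were also highest in treated stroma, at 20350 and 50438. Ifitm1, Ifitm2, Cmpk2 and Rsad2 were instead highest in T cells of day 14, with or without pAsc, and Ifit2 was highest in treated T cells of day 17, at 317.2.

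Other genes of the interferon pathway were described from lists. Of 41 other interferon-stimulated genes, 34 were measured in stroma, 14 were at least 2-fold higher in treated stroma and 0 at least 2-fold lower. Of these 34, 33 lay above 0, with a median of 0.83. The 4 farthest from 0 were Oasl2 (2.30) and Oas1a (1.95), which belong to the oligoadenylate synthetase family, Usp18 (1.92), which removes Isg15 from proteins, and Ifi27l2a (1.89). In T cells at 24 h, 38 were measured and 0 were 2-fold apart, with 16 above and 22 below 0 and a median of -0.02. Dhx58, an RNA sensor, was the farthest from 0 there at -0.83. In T cells at 72 h 1 of 38 was at least 2-fold higher, Ifi27l2a at 1.11, and 0 were lower. Of these 38, 18 lay above and 20 below 0, with a median of -0.03, and the next farthest were Dhx58 at -0.92, Iigp1, an interferon-induced GTPase, at -0.73 and Lgals9 at -0.64. The 72 h ratios of Ifit1 and Ifit3 were thus not shared by the list as a whole.

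Upstream of these genes little passed the size rule. Of 23 interferons and receptors listed, 18 were on the array and 9 were measured in stroma, with 0 of them 2-fold apart and a median of -0.01. Ifnar1 and Ifnar2, the receptor for type I interferon, had log2 ratios of 0.05 and -0.07 in stroma, and Ifnb1 was not above background. In T cells at 24 h Ifng, the type II interferon, was at 338.6 in treated and 196.4 in untreated cells. Its log2 ratio was 0.79, and 1.09 by Agilent, past 2-fold. Of 15 signalling genes, 13 were measured in stroma, with a median of 0.12. Irf9 was at least 2-fold higher, at 4298 in treated and 1988 in untreated stroma (log2 ratio 1.11). Stat2 had a log2 ratio of 0.80 and Jak2 of -0.54. For T cells 0 of the 15 were 2-fold apart at either time, and Tyk2 was lowest on both arrays, with -0.59 and -0.64.

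**Figure D4:**
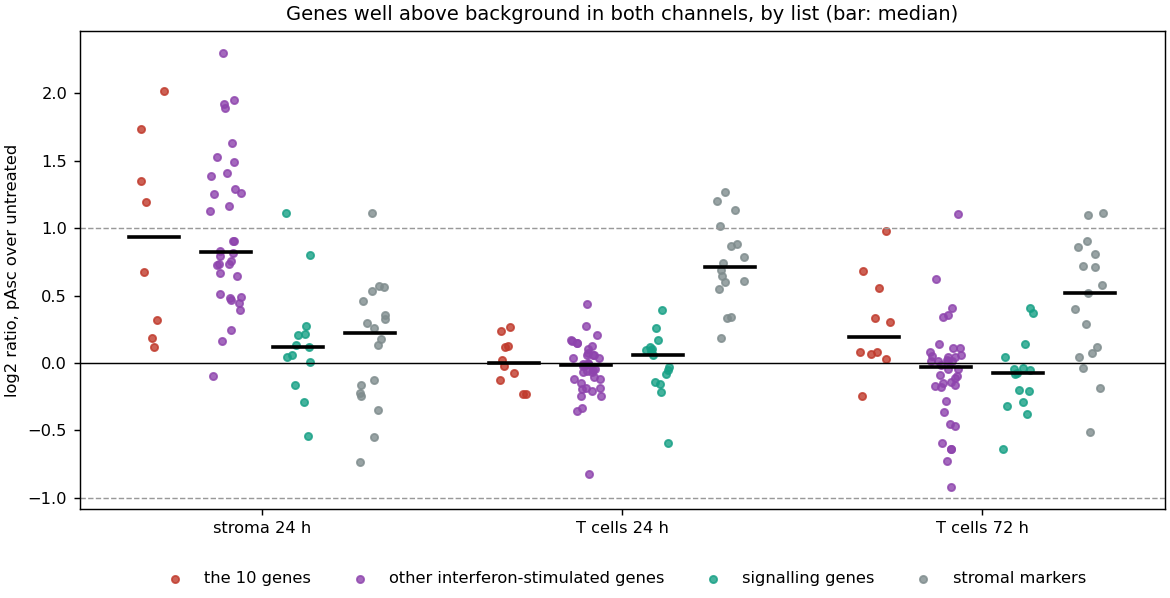
Log2 ratio of pAsc over untreated on the 3 arrays for the 10 genes (red), other interferon-stimulated genes (purple), signalling genes (green) and stromal markers (grey), 1 point a gene measured in both channels. Black bars are medians and dashed lines mark 2-fold. In stroma the red and purple medians lie at 0.94 and 0.83, and in T cells the grey medians lie at 0.72 and 0.52, above the other lists.

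The genes whose 3 ratios lay nearest to those of the 10 genes were sought over 13651 genes measured on all arrays. The median profile of the 8 genes measured on all of them was 0.94 in stroma, and 0.07 (24 h) and 0.32 (72 h) in T cells. By Euclidean distance over the 3 ratios, the nearest were Serpinb6b (0.11), Phf11d (0.12), Ttll11 (0.14), Tor3a (0.15), Sp100 (0.15), Nt5dc2 (0.16), Zc2hc1c (0.18) and Rnf213 (0.19). Sp100 was also in the list of interferon-stimulated genes. With 3 arrays this likeness is a description.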

How the data were processed

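Mouse Agilent arrays of 2 colours were quantified in Feature Extraction (Agilent, version 10.5.1.1), as the file headers state. The authors deposited spot intensity values (mean signal and local background per channel, not normalised) and a log10 ratio of Cy5 over Cy3, background-subtracted and dye-normalised per the file headers. All arrays shared 1 slide and 1 scan, and 117 to 130 of 43379 spots per array carried an outlier flag.

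Intensities were corrected with normexp (offset 50) and loess (span 0.3) in limma 3.58.1 under R 4.3.3, with control and flagged spots at weight 0, and Aquantile made levels comparable across arrays. Lists and counts used Python 3.11.15. Probes were named by RefSeq accession, symbol or synonym where the reference table held them. A gene was represented by its brightest probe. Measured genes had a share of 0.5 or more of their spots well above background. Agilent's log10 ratio, turned to log2, served as an alternative. A bound divides the bright level by the dim probe's own level.

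The 10 genes, the lists and the rule for named genes (all members, up to 4 farthest from 0 in a list, the 8 nearest profiles) were chosen with earlier results of these data known. Only some genes of each list are given, and a result for 1 listed gene is not reported here. The normexp and loess steps were tested on simulated arrays, in which no dim spot was changed. Promoter windows came from RefSeq (GRCm38.p6), and protein sequences were not used here. The number of arrays limits the precision.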

Additional observations from a re-analysis of the deposited data

Results flagged for a closer look

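Ifitm1 and Bst2 drew attention because their log2 ratios lay on opposite sides of 0 on different arrays. The Ifitm1 ratio was 0.41 higher in stroma than in T cells at 24 h (0.18 against -0.23), and 0.56 higher in T cells at 72 h than at 24 h (0.33 against -0.23). The Bst2 ratio was 1.59 higher in stroma than in T cells at 24 h (1.35 against -0.23). With 1 array per group these differences were not tested. The T cell signs of both genes at 24 h turned only under centring by a median. On measured genes it gave 0.22 for Ifitm1 and 0.08 for Bst2, and the stromal Ifitm1 value turned to -0.18.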

How the results depend on the processing

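No paired analysis was possible because each comparison has 1 array. The 4 genes called in stroma kept a log2 ratio of at least 1.14 under every setting tried, and no called value changed sign. The median of the 10 genes in T cells at 24 h, near 0, took either sign. In T cells at 72 h, 1 gene was at least 2-fold higher with a normexp offset of 0, where 0.522% of all measured genes were. It was also 1 gene with plain background subtraction, where 0.719% of all were, and with the Agilent log ratio, where 0.712% were. Past a 1.5-fold rule lay 2 genes, where 1.93% of all were higher. Centring on the median of all probes gave 5 genes at 72 h, where 9.56% of all were 2-fold higher. In stroma it gave 6, where 19.8% were, Ifitm3 at 1.93 and Ifitm2 at 1.18 included. The median of all measured genes moved to 0.64 in stroma, 0.41 at 24 h and 0.54 at 72 h. This centring gave medians of 1.81 over the 8 genes measured in stroma, and of 0.29 at 24 h and 0.96 at 72 h over all 10. It also gave 5 genes at least 1 higher in stroma than in T cells, and 2 at least 1 higher at 72 h than at 24 h. Centring on measured genes gave medians of 1.26 in stroma and 0.47 at 72 h. It gave 5 genes at least 2-fold higher in stroma, where 2.11% of all were. With it, 1 gene was at least 1 higher at 72 h than at 24 h. With a 1.5-fold limit on that difference in place of 1 log2 unit, 1 gene also passed, Ifit1 at 0.75. The cause was not tested, and shares of all genes for these differences were counted only for the loess values at 1 log2 unit. Of the single-gene values under other settings, 63 moved by more than the SD between probes and 189 did not. The 189 include values that could not move. Settings that only relaxed the background filter left every ratio as it was, and a median over probes cannot change a gene with 1 probe. The Agilent log ratio called more of all genes, 136 higher and 110 lower in stroma, 147 and 32 at 24 h, and 116 and 166 at 72 h. Dim genes are limited by signal: the offset of 50 pulls their ratios toward 0, as for Cmpk2, Ifit3b and Ifit2 in stroma.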
